A study of Mus musculus with 12 samples.

Results

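The forebrain marker genes described here were Lamp5, Neurod6, Neurod2, Tbr1 and Emx1, set side by side in RNA of the mouse hypothalamus. Lamp5 was chosen by its low signal in the treated pools relative to CON, and the other members were selected as markers of cortical and hippocampal neurons, with their values also known. Of these 5 genes, 4 were measured among 17186 genes tested, each by 1 probe set, and Neurod6 was not analysed here. Because the contrasts against CON chose the members, their differences from CON are given as descriptions without a p-value.

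All mice were male C57Bl/6J, 21 weeks old, and the tissue was snap-frozen hypothalamus. ASP mice received the sweetener aspartame in the drinking water at 46 mg/kg body weight, starting in utero through the mother and lasting until adulthood. CGP mice were exposed to CGP 39551, which competitively blocks glutamate receptors of the NMDA type (NMDAR), through their mothers, whose drinking water held a dose set at 5 mg/kg of maternal weight, from conception until weaning at postnatal day 28. ASP+CGP mice had both exposures, and CON mice had neither. The RNA of each group was combined into 1 pool and hybridized to 3 arrays, so the 3 arrays are repeat measurements of a pool. The p-values below thus cover array-to-array spread only, variation among mice being averaged out in the pools, and what a treatment did and any further way in which the pools differed cannot be told apart.

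Signals were log2 values after Robust Multi-Array Average (RMA) processing. Arrays of the same pool correlated at 0.9952 to 0.99865 across genes, which are not independent replicates. Array 3 of ASP+CGP and array 3 of CON were farthest from their pool means, their deviations having an SD across genes of 0.0996 and 0.0903, where the remaining 10 arrays had 0.0490 to 0.0701. The deposited values used here carry no detection call, and 18810 of 19019 probe sets with 1 gene symbol reached the signal minimum of 6, adrenal cortex genes among them, so the labelled tissue could not be checked by the presence of its markers.

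Lamp5 encodes a brain-restricted member of the lysosome-associated membrane protein (LAMP) family, also known as BAD-LAMP. In mouse cortex it labels a class of GABAergic interneurons and some excitatory neurons, and it is also found at inhibitory nerve endings of the hindbrain and spinal cord. Its counterpart in Caenorhabditis elegans, UNC-46, directs the vesicular GABA transporter to synaptic vesicles. The other members are transcription factors of the excitatory lineage of the developing cortex and hippocampus. Neurod2 and Neurod6 are basic helix-loop-helix factors that bind E-box sequences, Tbr1 is a T-box factor of deep-layer cortical neurons, and Emx1 is a homeobox factor of the dorsal forebrain.

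The start regions of Lamp5 are shown because Lamp5 was the only measured member whose treated and CON arrays separated, while the remaining members encode DNA-binding factors. RefSeq (build GRCm38.p6) gives Lamp5 a pair of start sites on the plus strand of chromosome 2, and each window runs from 250 bases before the start to 50 bases after it. Capitals mark the single match to an E-box of the NeuroD type, CAGATG.
Lamp5, chr2:136052089-136052388: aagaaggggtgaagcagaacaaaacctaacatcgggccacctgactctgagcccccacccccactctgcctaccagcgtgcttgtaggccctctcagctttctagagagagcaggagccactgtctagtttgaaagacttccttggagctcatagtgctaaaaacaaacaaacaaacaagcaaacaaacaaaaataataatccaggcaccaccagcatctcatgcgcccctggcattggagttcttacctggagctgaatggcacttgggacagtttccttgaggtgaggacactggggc
Lamp5, chr2:136057498-136057797: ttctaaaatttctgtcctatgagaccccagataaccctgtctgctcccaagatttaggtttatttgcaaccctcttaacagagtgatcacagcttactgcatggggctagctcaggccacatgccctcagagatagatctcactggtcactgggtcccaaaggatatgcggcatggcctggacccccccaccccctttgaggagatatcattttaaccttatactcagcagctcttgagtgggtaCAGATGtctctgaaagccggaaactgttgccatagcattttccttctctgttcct

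The windows were searched on both strands for CAGATG, for the T-box core GGTGTGA and for the homeodomain core TAATTA, which do not overlap one another in these windows. The second Lamp5 window held 1 E-box, and the first held none of the 3 motifs. The E-box occurred in 17.15% of 32851 RefSeq windows of the same length, the T-box core in 3.98% and the homeodomain core in 5.29%. The window of Neurod2 held 1 E-box, that of Tbr1 held 2 homeodomain cores, and those of Emx1 and Neurod6 held none of the 3. These matches describe letters only and say nothing of binding.

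Lamp5 was lower on all 9 treated arrays than on all 3 CON arrays, by a similar amount in each treated pool. Its log2 signals were 9.11, 9.18 and 9.18 in ASP, 9.14, 9.19 and 9.03 in CGP, 9.20, 9.22 and 9.09 in ASP+CGP, and 9.71, 9.79 and 9.60 in CON. The highest treated array and the lowest CON array were 0.38 log2 units apart. The pool means rank in the order CGP with 9.12 ± 0.08, ASP with 9.16 ± 0.04, ASP+CGP with 9.17 ± 0.07 and CON with 9.70 ± 0.10 (SD, n = 3 arrays each), and only the step to CON exceeded the spread. In a tissue extract, fewer Lamp5-expressing cells and less Lamp5 RNA per cell cannot be told apart.

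The log2 fold change of Lamp5 was -0.54 ± 0.06 in ASP vs CON, -0.58 ± 0.06 in CGP vs CON and -0.53 ± 0.06 in ASP+CGP vs CON (SE of the fit). These 3 comparisons share the CON arrays, so they are not independent of one another.

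**Figure D1:**
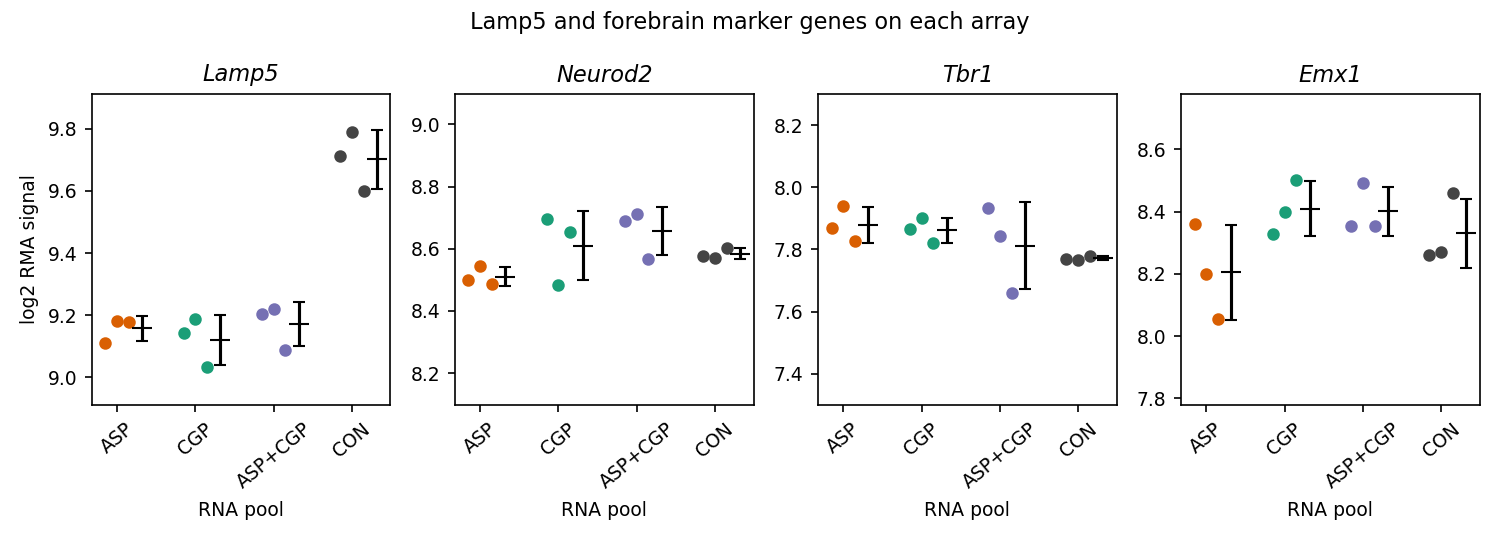
Log2 RMA signal (vertical axis, each panel spanning 1 log2 unit) of Lamp5, Neurod2, Tbr1 and Emx1 on each array of the ASP, CGP, ASP+CGP and CON pools; points are arrays, and the black marks are the mean ± SD of 3 arrays. Lamp5 lay between 9.03 and 9.22 on the treated arrays and between 9.60 and 9.79 on the CON arrays, while the other genes overlapped CON in at least 1 treated pool.

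Differences between the treated pools were tested with limma, with Benjamini-Hochberg adjustment over all 17186 genes. Lamp5 was chosen by a low signal in these same pools, which can favour small differences among them. These tests are thus not independent of the choice. Lamp5 differed by 0.01 log2 units in ASP+CGP vs ASP (95% interval -0.11 to 0.14, adjusted p = 0.92). The difference was 0.05 in ASP+CGP vs CGP (-0.08 to 0.18, adjusted p = 0.73) and 0.04 in ASP vs CGP (-0.09 to 0.16, adjusted p = 0.82). The combined exposure thus left Lamp5 within these intervals of either exposure alone, which does not show that the pools were equal. The effect of aspartame in the presence of CGP 39551 minus that in its absence (the interaction) was 0.59 ± 0.08 for Lamp5, a value that rests on the CON arrays and is given without a test.

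Over all genes, treated and CON arrays seldom separated in this way. All 9 treated arrays lay below all 3 CON arrays for 254 genes, or 1.48%, and above them for 206 genes, or 1.20%. By the width of the gap, Lamp5 ranked 3rd of the 254 genes, a rank read from the same values that chose it and so only a description. The wider gaps were those of Slc6a5, the neuronal glycine transporter GlyT2, with 1.22 log2 units, and Bpifa1, a secreted protein of airway epithelium, with 0.67.

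Neurod2, Tbr1 and Emx1 showed no shift of this kind. Neurod2 measured 8.50, 8.54 and 8.49 in ASP, 8.70, 8.48 and 8.65 in CGP, 8.69, 8.71 and 8.57 in ASP+CGP, and 8.58, 8.57 and 8.60 in CON. The CGP and ASP+CGP arrays of Neurod2 spanned the CON arrays, whereas the 3 ASP arrays lay just below them. The log2 fold change of Neurod2 was -0.07 ± 0.06 in ASP vs CON, 0.03 ± 0.06 in CGP vs CON and 0.07 ± 0.06 in ASP+CGP vs CON.

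Tbr1 measured 7.87, 7.94 and 7.83 in ASP, 7.86, 7.90 and 7.82 in CGP, 7.93, 7.84 and 7.66 in ASP+CGP, and 7.77, 7.77 and 7.78 in CON. The ASP and CGP arrays of Tbr1 lay slightly above CON, and those of ASP+CGP fell on both sides of it. Its log2 fold change was 0.11 ± 0.06 in ASP vs CON, 0.09 ± 0.06 in CGP vs CON and 0.04 ± 0.06 in ASP+CGP vs CON, opposite in sign to that of Lamp5 in each comparison.

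Emx1 measured 8.36, 8.20 and 8.05 in ASP, 8.33, 8.40 and 8.50 in CGP, 8.35, 8.49 and 8.36 in ASP+CGP, and 8.26, 8.27 and 8.46 in CON. The Emx1 arrays of every treated pool overlapped those of CON. Its log2 fold change was -0.13 ± 0.08 in ASP vs CON, 0.08 ± 0.08 in CGP vs CON and 0.07 ± 0.08 in ASP+CGP vs CON.

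Among the treated pools, none of these transcription factor genes passed the adjusted p of 0.05. For Neurod2, ASP+CGP vs ASP gave 0.15 (95% interval 0.02 to 0.27, adjusted p = 0.15), and for Emx1 the same comparison gave 0.20 (0.03 to 0.37, adjusted p = 0.17). Emx1 gave -0.21 in ASP vs CGP (-0.37 to -0.04, adjusted p = 0.21). For Tbr1 the largest of these differences was -0.07 in ASP+CGP vs ASP (-0.20 to 0.06, adjusted p = 0.56).

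The other LAMP family genes did not share the low signal of Lamp5. Lamp1 and Lamp2, the major membrane glycoproteins of lysosomes, had log2 fold changes of 0.03 and -0.04 in ASP vs CON, -0.01 and -0.06 in CGP vs CON, and -0.03 and 0.00 in ASP+CGP vs CON, with adjusted p of 0.57 or more in limma. Cd68, the LAMP family gene of macrophages and microglia, had 0.09 ± 0.07 in ASP vs CON, -0.17 ± 0.07 in CGP vs CON and -0.13 ± 0.07 in ASP+CGP vs CON (adjusted p = 0.53, 0.35 and 0.40). Lamp3 was not analysed here.

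Genes next to Lamp5 on chromosome 2 were examined in RefSeq gene order. Plcb4, a phospholipase C gene that is the nearest measured gene on one side, was upregulated in CGP vs CON by 0.25 ± 0.05 (adjusted p = 0.021) and in ASP+CGP vs CON by 0.32 ± 0.05 (adjusted p = 0.0019), with 0.05 ± 0.05 in ASP vs CON (adjusted p = 0.58). Its pass in CGP vs CON was lost without the first or second CON array or any one CGP array (adjusted p up to 0.11). Pak7, a p21-activated kinase gene that is nearest on the other side, had -0.01, 0.01 and 0.05 in ASP, CGP and ASP+CGP vs CON (adjusted p of 0.64 or more). Plcb1, Ankef1, Mkks, Tmx4 and Snap25, a gene for a presynaptic fusion protein, did not pass in any comparison with CON. None of the 7 measured neighbours was lower by the amount seen for Lamp5.

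**Figure D2:**
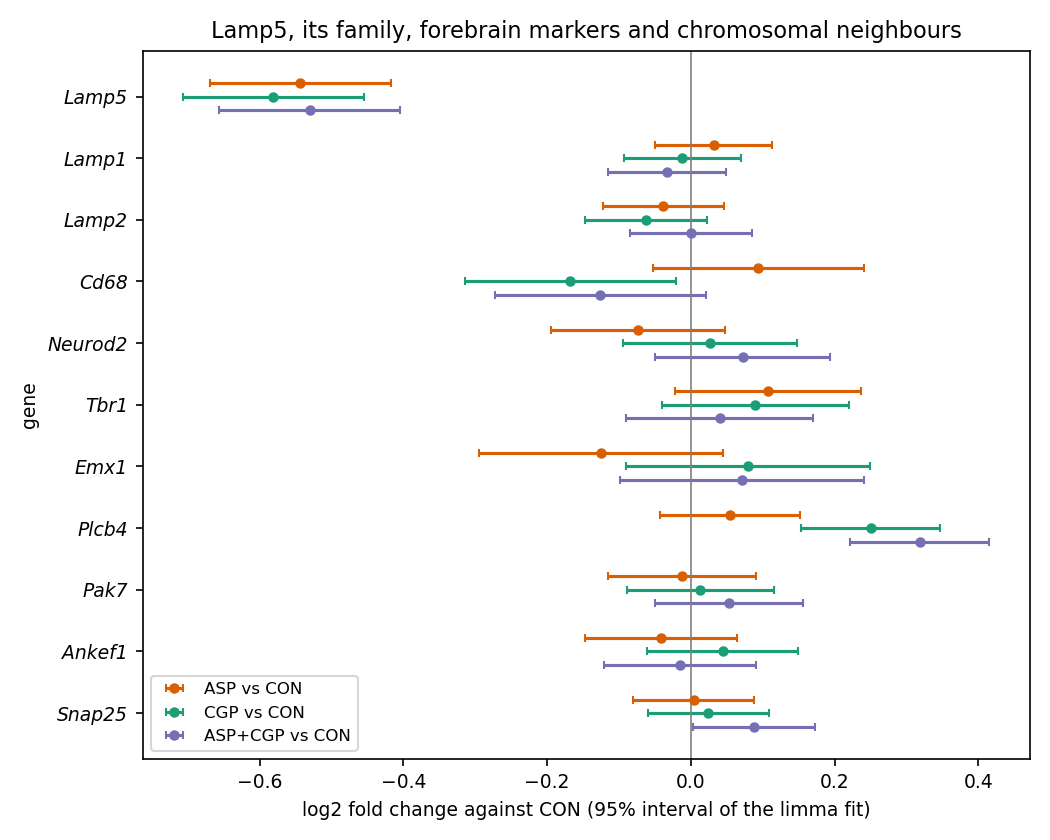
Log2 fold change against CON (horizontal axis) with its 95% interval in the limma fit for Lamp5, other LAMP family genes, the forebrain transcription factor genes and 4 neighbours of Lamp5 on chromosome 2, for ASP, CGP and ASP+CGP. Lamp5 stands at -0.54, -0.58 and -0.53, and the intervals of Plcb4 in CGP and ASP+CGP lay above 0. Tbr1 also stood above 0, at 0.11, 0.09 and 0.04, with intervals that held 0.

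To see whether further forebrain genes moved with Lamp5, 3 lists were counted: pallial transcription factors (22 of 26 measured), effector genes of cortical and hippocampal excitatory neurons (35 of 35) and genes of cortical interneurons (26 of 28). Together they held 83 measured genes, the transcription factor members included and Lamp5 not. A differentially expressed gene (DEG) had to pass an adjusted p of 0.05 in limma and to differ by more than 1.4-fold. Of the 83 genes, 1 was a DEG in ASP vs CON, where 1.05% of all genes were, 0 in CGP vs CON (0.111% of all genes) and 1 in ASP+CGP vs CON (0.180% of all genes). The median log2 fold change of the 83 genes was -0.01, 0.01 and 0.03 in ASP, CGP and ASP+CGP vs CON, against -0.01, 0.01 and 0.00 over all genes.

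At the adjusted p alone, 7 of the 83 genes (8.43%) passed in ASP vs CON (4 higher and 3 lower), where 4.08% of all genes did. In CGP vs CON 5 genes (6.02%) passed (2 higher and 3 lower), where 0.628% of all genes did. In ASP+CGP vs CON 12 genes (14.5%) passed (9 higher and 3 lower), where 1.75% of all genes did. At an unadjusted p under 0.05 the lists held 22 genes in ASP vs CON (26.5%, against 16.9% of all genes), 33 in CGP vs CON (39.8%, against 11.6%) and 29 in ASP+CGP vs CON (34.9%, against 15.4%). With 1 array left out the counts at the adjusted p ranged from 4 to 14 in ASP vs CON, from 2 to 6 in CGP vs CON and from 5 to 13 in ASP+CGP vs CON. With the replicate number as a block in a fit of the ASP+CGP and CON arrays alone, 8 genes passed in ASP+CGP vs CON. The 9 treated arrays lay below CON for 5 of the 83 genes (1.48% of all genes) and above CON for 3 (1.20% of all genes). Among the 5 the widest gap was 0.11 log2 units, for Ccn3. The lists thus held a larger share of genes past the adjusted p than all genes together, in both directions. The share whose treated and CON arrays separated was also larger. These and the other marker lists were chosen with earlier results of these data known, so such shares are descriptions only. The medians showed no common shift toward the low signal of Lamp5.

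Among pallial transcription factors, Neurod1, which acts in newborn excitatory neurons and also in granule cells of the cerebellum, was the DEG of ASP+CGP vs CON. Its signals were 7.74, 7.92 and 7.88 on the ASP+CGP arrays and 7.39, 7.16 and 7.11 on the CON arrays, an increase of 0.63 ± 0.07 (adjusted p = 0.00039). Neurod1 also rose by 0.45 ± 0.07 in ASP+CGP vs ASP (adjusted p = 0.0014) and had 0.32 ± 0.07 in ASP+CGP vs CGP (adjusted p = 0.064). Of 15 cerebellar neuron genes, Neurod1, Cbln3, En2 and Zic1 were higher in ASP+CGP vs CON by the adjusted p, and 0 were lower. Of all 17186 genes, 142 were higher and 158 lower. The summed signal of the 15 genes was 12610 to 13781 in ASP+CGP, 12698 to 12983 in CGP, 12314 to 12336 in ASP and 11838 to 12022 in CON. Zic1 was also higher by the adjusted p in ASP vs CON and in CGP vs CON. Cbln3, a gene of cerebellar granule cells, was a DEG in ASP+CGP vs CON with 0.74 ± 0.10 (adjusted p = 0.0016). Gabra6, a receptor subunit gene of the same cells and also of the 15, passed the signal minimum through the ASP+CGP arrays and is left out of that count. It measured 6.43, 6.50 and 6.55 in ASP+CGP and 5.85, 5.84 and 6.16 in CON, and its difference of 0.54 is given as a description only. The part of these genes in the Neurod1 result was not tested.

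Fezf2, a zinc finger factor of subcortical projection neurons, was lower in ASP vs CON by the adjusted p (-0.23 ± 0.05, adjusted p = 0.018), with -0.14 ± 0.05 in CGP vs CON (adjusted p = 0.31) and -0.12 ± 0.05 in ASP+CGP vs CON (adjusted p = 0.29). The pass of Fezf2 was lost without the first or second ASP array or the first or second CON array (adjusted p up to 0.08). Mef2c and Etv1 were upregulated in ASP+CGP vs CON by 0.33 ± 0.04 and 0.29 ± 0.06 (adjusted p = 0.00098 and 0.021), both short of the 1.4-fold limit, and Etv1 lost its pass without any one ASP+CGP array or the first or second CON array (adjusted p up to 0.1). Mef2c is a MADS-box factor of excitatory neurons, and Etv1 is an ETS factor of deep-layer neurons.

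Among effector genes of excitatory neurons, Slc17a7, which encodes the vesicular glutamate transporter VGLUT1, was upregulated in CGP vs CON by 0.43 ± 0.06 (adjusted p = 0.0057) and in ASP+CGP vs CON by 0.41 ± 0.06 (adjusted p = 0.0041). It measured 10.36, 10.40 and 10.40 in CGP, 10.45, 10.44 and 10.21 in ASP+CGP, and 9.95, 10.05 and 9.86 in CON, so that no array overlapped with CON. In ASP vs CON Slc17a7 had 0.16 ± 0.06 (adjusted p = 0.21). Its pass in CGP vs CON was lost without moderation of the spread (adjusted p = 0.053), and that in ASP+CGP vs CON was lost in a limma fit of these 2 pools alone (adjusted p = 0.098). Without the third ASP+CGP array, Slc17a7 exceeded the fold limit in ASP+CGP vs CON, with 0.49.

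By the adjusted p, 2 of the 35 effector genes were lower and 0 higher in ASP vs CON. The list held 2 higher and 2 lower in CGP vs CON, and 6 higher and 2 lower in ASP+CGP vs CON. Ccn3, a matricellular protein gene of hippocampal and cortical neurons, was a list gene with the direction of Lamp5. It measured 8.70, 8.62 and 8.75 in ASP, 8.70, 8.84 and 8.70 in CGP, 8.64, 8.63 and 8.62 in ASP+CGP, and 8.95, 9.01 and 9.07 in CON. Every treated array of Ccn3 lay below CON, and its log2 fold change was -0.32 ± 0.05 in ASP (adjusted p = 0.0019), -0.27 ± 0.05 in CGP (adjusted p = 0.032) and -0.38 ± 0.05 in ASP+CGP (adjusted p = 0.0015). Its pass in CGP was lost without any one CON array, the first CGP array, the third CGP array, the first ASP array or the first ASP+CGP array (adjusted p up to 0.18). Ccn2, a related gene of deep cortical neurons, fell in ASP+CGP vs CON by 0.45 (adjusted p = 9.2e-05), with -0.03 in ASP vs CON and -0.11 in CGP vs CON (adjusted p = 0.79 and 0.37).

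The list of cortical interneuron genes was not limited to the class that Lamp5 labels in cortex. In it, genes of GABA synthesis and transport, which are not specific to that class, had small differences from CON that did not pass the test. Gad1 and Gad2, the enzymes of GABA synthesis, had log2 fold changes between -0.02 and 0.09 in the 3 comparisons with CON, with adjusted p of 0.61 or more. Slc32a1, the vesicular GABA transporter, had -0.02 in ASP vs CON, -0.10 in CGP vs CON and -0.11 in ASP+CGP vs CON (adjusted p = 0.87, 0.37 and 0.22). Ndnf and Reln, which are among the markers of the neurogliaform cells of the Lamp5 class, had 0.06 and -0.05 in ASP, 0.09 and -0.01 in CGP, and 0.06 and 0.00 in ASP+CGP (adjusted p of 0.55 or more). They do not stand for the whole class. Other interneuron genes, Npy (described below) included, passed the adjusted p, in either direction. Id2, an inhibitor of basic helix-loop-helix factors, and Lhx6, a LIM homeobox factor of interneurons from the ganglionic eminence, were higher in ASP vs CON by 0.24 ± 0.05 and 0.26 ± 0.05 (adjusted p = 0.016 and 0.014). Dlx6, a homeobox factor of GABAergic neurons, was lower in CGP vs CON (-0.31 ± 0.05, adjusted p = 0.0081). Leaving out the first CON array ended the pass of Id2 and Lhx6, as did leaving out the first ASP array for Id2 and the second ASP array for Lhx6, and leaving out the first or second CGP array ended that of Dlx6 (adjusted p up to 0.084, 0.058 and 0.057).

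Npy, a neuropeptide gene of these interneurons and of arcuate neurons of the hypothalamus, was the DEG of ASP vs CON. It measured 12.04, 12.01 and 11.98 in ASP, 11.15, 11.19 and 11.16 in CGP, 10.94, 10.94 and 11.26 in ASP+CGP, and 11.36, 11.39 and 11.65 in CON. Npy was upregulated in ASP vs CON by 0.54 ± 0.09 (adjusted p = 0.0015) and lower in ASP+CGP vs CON by the adjusted p (-0.42 ± 0.09, adjusted p = 0.023; up to 0.1 without the first or second ASP+CGP array), with -0.30 ± 0.09 in CGP vs CON (adjusted p = 0.18). The pools of Npy thus took an order unlike that of Lamp5, with ASP at the top. All 8 measured adrenal cortex genes were also higher in ASP vs CON and ASP vs CGP, and lower in ASP+CGP vs ASP. The part of adrenal transcripts in the Npy result was not tested.

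**Figure D3:**
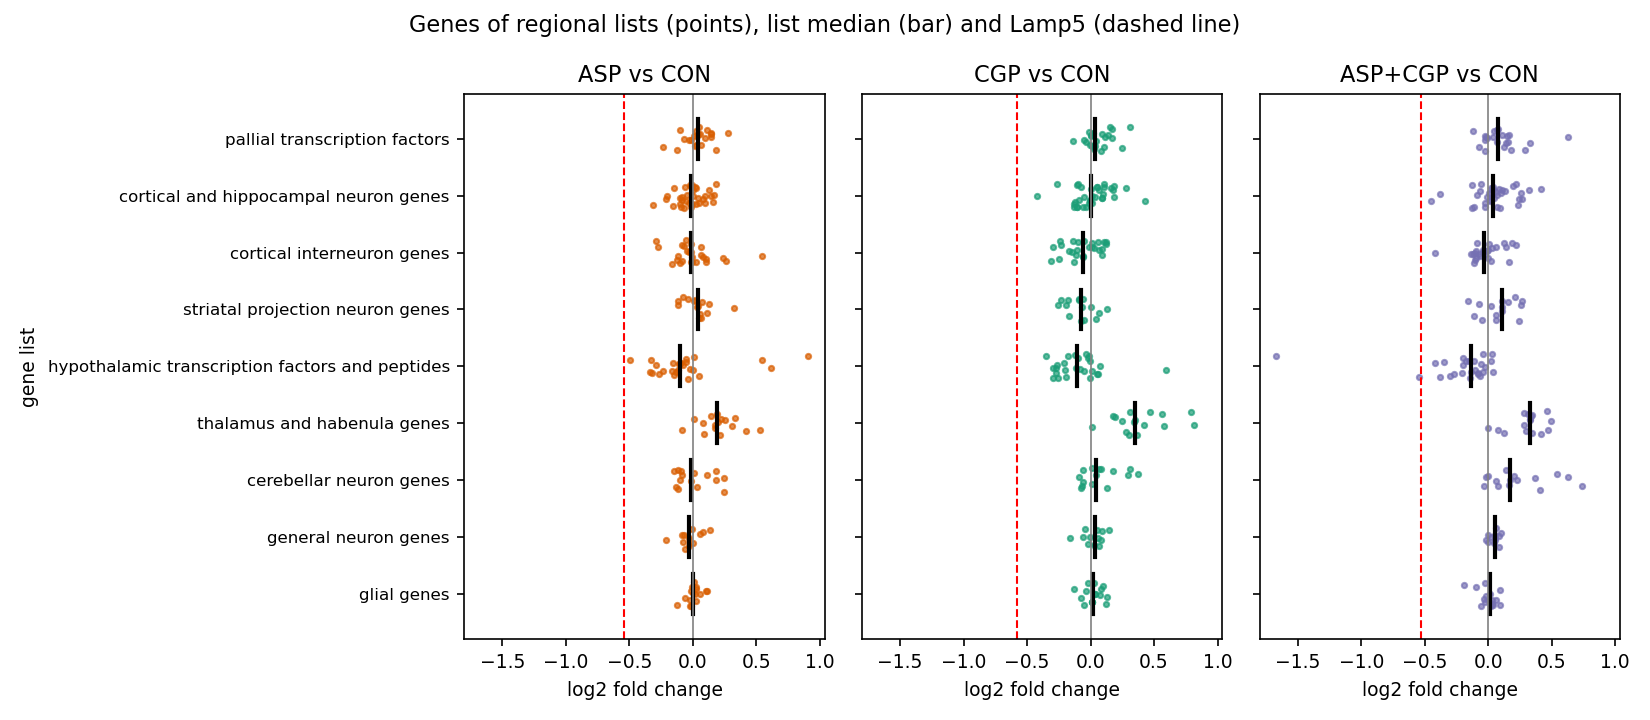
Log2 fold change against CON (horizontal axis) of the genes of 9 regional or cell type lists (points), with the median of each list (black bar) and Lamp5 (red dashed line), for ASP, CGP and ASP+CGP. The 3 forebrain lists centred close to 0 and their points lay to the right of Lamp5, while thalamus and habenula genes lay mostly above 0, with medians of 0.19, 0.35 and 0.33.

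Between the treated pools, the 83 forebrain list genes held 1 DEG in ASP+CGP vs ASP (1.27% of all genes), 1 in ASP+CGP vs CGP (0.163%) and 1 in ASP vs CGP (0.943%). At the adjusted p alone the counts were 15 in ASP+CGP vs ASP (11 higher and 4 lower, 18.1%, against 6.92% of all genes), 4 in ASP+CGP vs CGP (4.82%, against 0.978%) and 6 in ASP vs CGP (7.23%, against 3.42%). With 1 array left out they ranged from 9 to 19, from 3 to 7 and from 2 to 8. Npy was the DEG of ASP+CGP vs ASP, where it fell by 0.97 ± 0.09 (adjusted p = 4.2e-06), and of ASP vs CGP, where it was higher by 0.84 ± 0.09 (adjusted p = 2.3e-05). Crym, a thyroid hormone binding protein of deep-layer neurons, was upregulated in ASP+CGP vs CGP by 0.55 ± 0.06 (adjusted p = 0.00023). Arpp21, a cyclic AMP-regulated phosphoprotein gene, was also higher in ASP+CGP, by 0.32 ± 0.05 vs ASP and 0.39 ± 0.05 vs CGP (adjusted p = 0.00058 and 0.00072).

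The genes whose signals were most like those of Lamp5 were sought by Pearson correlation over the 12 arrays, among tested genes whose pool means spanned at least 0.3 log2 units. The highest values were those of Trh (0.93), Slc6a5 (0.93), Hdc (0.91), Bpifa1 (0.91), Avp (0.88), Ccn3 (0.87), Glra1 (0.86), Gpr50 (0.86), Magel2 (0.85) and Oxt (0.82). Since the 12 arrays came from 4 pools, these values describe mainly the step between treated pools and CON. After the pool means were taken out, the correlation of these genes with Lamp5 ranged from -0.53 for Bpifa1 to 0.73 for Magel2. For the other members, the correlation with Lamp5 over the 12 arrays was -0.05 for Neurod2, -0.34 for Tbr1 and -0.14 for Emx1.

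Of these genes, Trh, Avp and Oxt encode hypothalamic peptide hormones, Hdc the enzyme of histamine synthesis, and Slc6a5 and Glra1 the glycine transporter and a glycine receptor subunit. Avp measured 10.67, 10.80 and 10.82 in ASP, 10.91, 10.92 and 10.89 in CGP, 10.70, 10.71 and 10.72 in ASP+CGP, and 11.26, 11.25 and 11.26 in CON. Oxt measured 11.76, 11.85 and 11.82 in ASP, 11.86, 11.87 and 11.91 in CGP, 11.75, 11.75 and 11.80 in ASP+CGP, and 12.04, 12.12 and 12.25 in CON. Both genes were below CON on every treated array, as Lamp5 was.

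Slc6a5 measured 8.11, 8.03 and 7.88 in ASP, 7.46, 7.33 and 7.43 in CGP, 7.43, 7.51 and 7.65 in ASP+CGP, and 9.37, 9.61 and 9.33 in CON. It differed among the treated pools in a way that Lamp5 did not, with ASP 0.60 ± 0.08 above CGP, against 0.04 ± 0.06 for Lamp5. Trh had log2 fold changes of -0.24, -0.27 and -0.30 in ASP, CGP and ASP+CGP vs CON.

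The lowest correlations with Lamp5 were those of Adgrd1 (-0.97), Ramp3 (-0.92), Gpr4 (-0.91), Tcf7l2 (-0.90) and Rab37 (-0.90). Tcf7l2, a transcription factor of thalamic and habenular neurons, measured 11.27, 11.30 and 11.33 in ASP, 11.45, 11.42 and 11.46 in CGP, 11.41, 11.44 and 11.46 in ASP+CGP, and 11.06, 11.07 and 11.17 in CON. Ramp3, an accessory protein of calcitonin family receptors, had log2 fold changes of 0.37, 0.40 and 0.50 in ASP, CGP and ASP+CGP vs CON. Both lay above CON on every treated array.

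**Figure D4:**
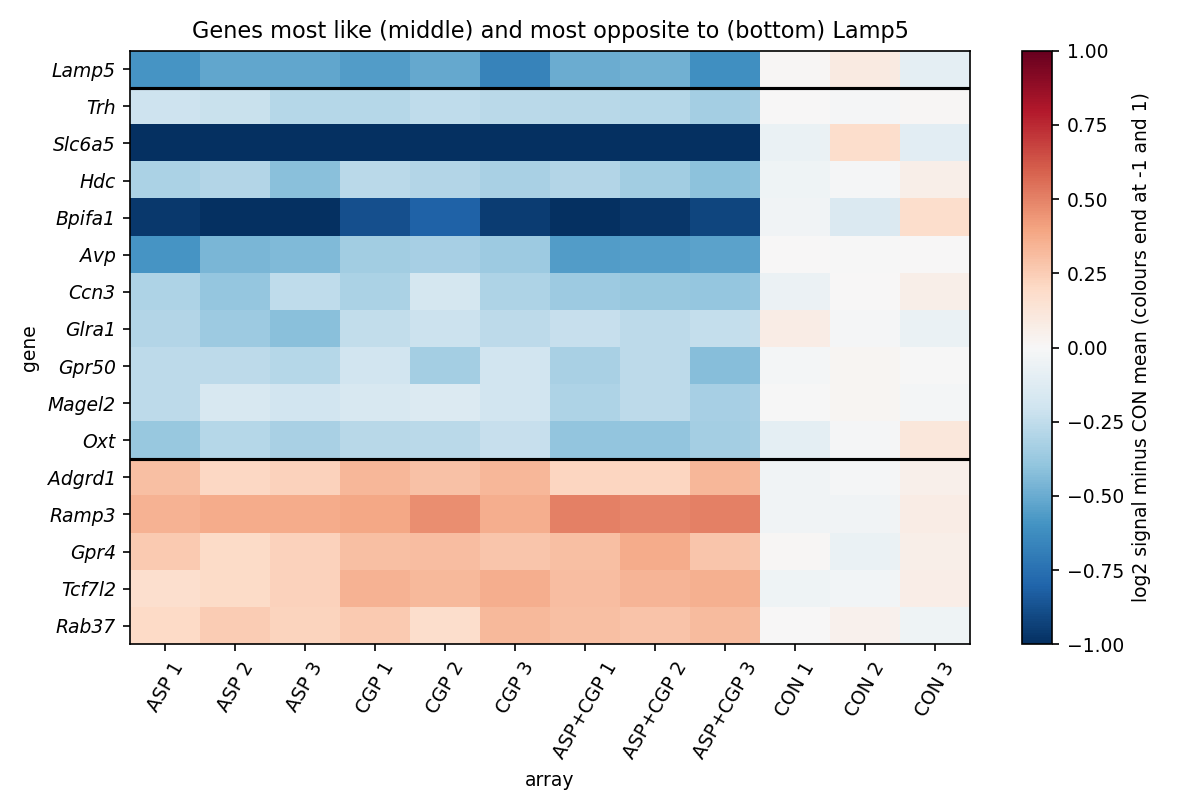
Log2 signal minus the CON mean (colour, ending at -1 and 1) of Lamp5, the 10 genes with the highest and the 5 with the lowest correlation with Lamp5 (rows), on the 3 arrays of the ASP, CGP, ASP+CGP and CON pools (columns). The 9 treated arrays are blue for Lamp5 and the genes most like it and red for the genes most opposite to it, and Slc6a5 and Bpifa1 reach the end of the colour scale.

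Marker lists of the thalamus and habenula and of the hypothalamus itself also differed from CON, the former mostly upward, opposite to Lamp5. Of 16 measured thalamus and habenula genes, 10 were higher in ASP vs CON by the adjusted p, 13 in CGP vs CON and 12 in ASP+CGP vs CON, against 502, 84 and 142 of all 17186 genes. Their summed linear signal per array was 20898 to 21217 in ASP, 23067 to 23330 in CGP, 22495 to 22703 in ASP+CGP and 19279 to 19847 in CON. Of 26 hypothalamic genes, 8 were lower in ASP vs CON, 5 in CGP vs CON and 8 in ASP+CGP vs CON, against 200, 24 and 158 of all genes. Npy, Nr5a1 and Pomc were higher in ASP vs CON, Pomc was higher in CGP vs CON, and 0 of the 26 were higher in ASP+CGP vs CON. Npy and Nr5a1 were also higher in ASP vs CGP and lower in ASP+CGP vs ASP, as all 8 measured adrenal cortex genes were. The part of adrenal transcripts in the Npy and Nr5a1 results was not tested. The median log2 fold change of the 26 hypothalamic genes was -0.10, -0.11 and -0.14. Their summed signal was 32503 to 33098 in ASP, 30417 to 31006 in CGP, 27145 to 28432 in ASP+CGP and 32853 to 35924 in CON, a sum in which Pomc of the pituitary and arcuate nucleus takes part. Both lists were chosen with earlier results of these data known, so their counts are descriptions only. The part of these lists in the Lamp5 result was not tested.

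Of 13 measured genes of inhibitory neurons of the hindbrain and spinal cord, Slc6a5 and Glra1 were lower than CON by the adjusted p in all 3 comparisons. Glra3 was also lower in ASP vs CON (-0.25 ± 0.05, adjusted p = 0.016, up to 0.072 without the second ASP, the third ASP or the second CON array). Hoxc6 and Gata3, transcription factors of these regions, were higher in ASP vs CON by 0.74 ± 0.12 and 0.43 ± 0.07 (adjusted p = 0.0026 and 0.0023). By the adjusted p, Hoxc6 was also higher in ASP vs CGP (0.62) and lower in ASP+CGP vs ASP (-0.60), as adrenal cortex genes were. Its pass in ASP vs CGP was lost without the third ASP or the second CGP array (adjusted p up to 0.068). The part of adrenal transcripts in the Hoxc6 result was not tested. Of all genes, 502 were higher and 200 lower in ASP vs CON. The hindbrain and spinal cord list was also chosen with earlier results of these data known. The summed signal of the list was 2732 to 2739 in ASP, 2555 to 2681 in CGP, 2595 to 2628 in ASP+CGP and 3196 to 3379 in CON. With Slc6a5 and Glra1 left out it was 1661 to 1761 in ASP, 1546 to 1675 in CGP, 1592 to 1597 in ASP+CGP and 1554 to 1617 in CON, so the lower sum rested on these genes. Glra1 had -0.36 ± 0.05 in ASP vs CON, -0.24 ± 0.05 in CGP vs CON and -0.24 ± 0.05 in ASP+CGP vs CON (adjusted p = 0.00025, 0.032 and 0.016). The passes of Glra1 in CGP and ASP+CGP vs CON were lost without the first or second CON array, among others (adjusted p up to 0.17 and 0.084 with 1 array left out), and the blocked fit of ASP+CGP and CON gave 0.07. The median log2 fold change of the list was 0.15 in ASP, -0.07 in CGP and -0.03 in ASP+CGP vs CON. Lists of general neuron genes (12 measured), glial genes (16) and reference genes (9) held 0 genes past the adjusted p of limma in any comparison with CON. At an unadjusted p under 0.05 they held at most 2 genes each, and the adjusted p was passed by B2m in ASP vs CON without the third CON or ASP+CGP array and by Gfap in ASP+CGP vs CON without the third CON array.

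Transcripts of other tissues also differed between pools. The summed signal of 10 pituitary hormone genes was 39284 to 39482 in ASP, 34774 to 35502 in CGP, 6151 to 6818 in ASP+CGP and 19875 to 21050 in CON. That of 8 adrenal cortex genes was 19415 to 19727 in ASP, 1191 to 1221 in CGP, 1149 to 1211 in ASP+CGP and 1166 to 1200 in CON. The part of these transcripts in the Lamp5 result was not tested.

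The interaction of aspartame and CGP 39551 was tested for the forebrain lists. Of the 83 genes, 10 (12.0%) passed the adjusted p, where 4.01% of all genes did, and with 1 array left out 4 to 11 passed. Npy, Crym and Tac1 also exceeded 1.4-fold, as did 257 of all 17186 genes. Npy had an interaction of -0.67 ± 0.12 (adjusted p = 0.0053), Crym of 0.76 ± 0.08 (adjusted p = 4.7e-05) and Tac1, the gene of substance P, of 0.49 ± 0.11 (adjusted p = 0.019; up to 0.061 without the second ASP or the first CGP array). For Crym the signals were 8.55, 8.64 and 8.63 in ASP, 8.32, 8.39 and 8.50 in CGP, 8.87, 8.97 and 9.02 in ASP+CGP, and 8.76, 8.90 and 8.80 in CON, so that either exposure alone lay below CON and the combination did not.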

How the data were processed

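Hypothalamic RNA was pooled per group and applied to 3 Affymetrix Mouse Gene 1.0 ST arrays per pool. The deposited values are log2 signals that the authors made with RMA (background correction, quantile normalization and median polish) in Partek. Quantile normalization removes a shift common to most genes, and background within the signal understates fold changes of weak genes. Array number limits the precision. The files name no genome build.

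Single-symbol probe sets (19019 of 29149) whose signal reached 6 on 3 or more arrays entered the fit, and the highest-mean probe set stood for a gene, leaving 17186 genes. Neurod6 is not in the annotation used. All 12 arrays were fitted with limma 3.58.1 in R 4.3.3 (8 residual and 5.43 prior degrees of freedom), with Benjamini-Hochberg adjustment within a contrast and a DEG limit of 0.05 and 1.4-fold. An exact permutation test of 3 against 3 arrays gives a two-sided p of 0.1 at the smallest and was not run. The steps were tested on simulated data.

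Named genes were the members, the LAMP family, list genes called in a contrast or needed to show a list, and those most like Lamp5. Neighbours of Lamp5 were chosen by RefSeq gene order, and Plcb4 and others among them after their values were seen. In the lists, Ctgf and Nov were updated to Ccn2 and Ccn3. The members and lists were chosen with earlier results of these data known. Arrays with the same number deviated together in ASP+CGP and CON (r = 0.17, 0.26 and 0.54 across genes) but not in the other pairs of pools. Arrays 1 and 2 of these pools also did so across numbers (r = 0.25 and 0.42). Array 3 of each went against arrays 1 and 2 of the other (r = -0.46 to -0.29). The pattern thus set array 3 apart rather than matching by number, and the labels name no shared batch. Figures were drawn with matplotlib 3.10.9.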

Additional observations from a re-analysis of the deposited data

Results flagged for a closer look

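The effect of aspartame in the presence of CGP 39551 (ASP+CGP vs CGP) was set against that in its absence (ASP vs CON). By the adjusted p and the 1.4-fold limit it differed for 3 forebrain list genes, Crym, Npy and Tac1. Lamp5 is shown beside them as a description. For Lamp5 the log2 effect was 0.05 with CGP 39551 and -0.54 without it, a difference of 0.59. No p-value is given for Lamp5, because the differences from CON that chose Lamp5 enter this value. For Crym the effect was 0.55 with CGP 39551 and -0.21 without it, a difference of 0.76 (limma, adjusted p = 4.7e-05). For Npy it was -0.12 with and 0.54 without, a difference of -0.67 (adjusted p = 0.0053). For Tac1 it was 0.21 with and -0.29 without, a difference of 0.49 (adjusted p = 0.019). The 3 arrays of each pool were repeats of the same RNA, so these values hold for the pools.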

How the results depend on the processing

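Lamp5 stayed lower than CON in all 3 treated pools under every alternative run. Its log2 fold change ranged from -0.59 to -0.50 in ASP vs CON, from -0.63 to -0.54 in CGP vs CON and from -0.58 to -0.49 in ASP+CGP vs CON, also with array 3 of both ASP+CGP and CON left out, a choice made after seeing the data. Between treated pools its adjusted p stayed between 0.38 and 0.985. Without a fold threshold, the counts of forebrain list genes became 7, 5 and 12 in ASP, CGP and ASP+CGP vs CON, 15 in ASP+CGP vs ASP, 4 in ASP+CGP vs CGP and 6 in ASP vs CGP. Those of all genes became 702, 108 and 300 against CON, 1189 in ASP+CGP vs ASP, 168 in ASP+CGP vs CGP and 587 in ASP vs CGP. At a fold of 1.5 the list counts were 0 in ASP vs CON and 0 in ASP+CGP vs CGP, and those of all genes 20 in ASP+CGP vs CON and 16 in ASP+CGP vs CGP. All probe sets without collapse to genes gave 63 in ASP+CGP vs CON and 61 in ASP+CGP vs CGP, from more features tested. With 1 array left out, the list count ranged from 1 to 2 in ASP+CGP vs ASP, as Neurod1 joined Npy without the second ASP or the first ASP+CGP array, and from 1 to 3 in ASP+CGP vs CON, as Npy and Slc17a7 joined Neurod1 without the third ASP+CGP array. With the replicate number as a block (replicate block), the counts of all genes were 180, 20 and 32 against CON, and 33 for ASP+CGP vs CON in a block fit of these pools alone, which was added after seeing the data. The block changed no DEG call given here (in the fit of the pools alone Glra1 no longer passed the adjusted p), and it left Lamp5 at -0.54, -0.58 and -0.53. In fits of the 2 pools compared alone, passes of the adjusted p were lost for Plcb4 (0.069 in CGP and 0.064 in ASP+CGP vs CON), Etv1 (0.21), Npy (0.23), Glra1 (0.16) and Slc17a7 (0.098) in ASP+CGP vs CON, Ccn3 (0.11), Glra1 (0.1) and Dlx6 (0.053) in CGP vs CON, and Lhx6 (0.062) in ASP vs CON. Without moderation they were lost for Etv1 (0.065) and Npy (0.098) in ASP+CGP vs CON, Ccn3 (0.084), Glra1 (0.056) and Slc17a7 (0.053) in CGP vs CON, and the interactions of Npy (0.052) and Tac1 (0.089). Array signals near background understate fold changes, and the 1 pool per group leaves variation between mice unmeasured.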
